A study of Mus musculus with 12 samples.

Results

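Epididymal white adipose tissue (eWAT) of Mir181a2b2 KO and flox mice that both received methotrexate (MTX) was compared here across all genes, library by library. The comparison takes 6 of the 12 libraries of the study: the 3 KO MTX libraries (replicates 2, 3 and 4) against the 3 flox MTX libraries (replicates 1, 2 and 4), chosen by their labels for genotype and treatment. KO mice are Mir181a2b2-/-, which lack in every tissue the locus that encodes Mir181a-2 and Mir181b-2, and flox mice are Mir181a2b2flox/flox, which carry loxP sites around that locus and serve as the control. All mice were fed a high-fat diet (60% fat) for 12 weeks, and the MTX groups received 1 mg/kg by weekly intraperitoneal injection. The other 6 libraries come from mice of both genotypes injected with vehicle. They entered the same fit, with its filter on low counts, its scaling and its estimate of the spread. Their values are also used where the vehicle groups are named below. The labels number the libraries but do not say that each came from a separate mouse, so p-values measure the spread between these libraries. Since the tissue was sequenced in bulk, fewer cells of a type and less RNA per cell cannot be told apart.

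MicroRNAs of the miR-181 family pair with short sites in the 3′ UTRs of messenger RNAs through their seed, bases 2 to 8 of the mature strand, and reduce the stability or translation of these RNAs. In endothelial cells the family is known for lowering inflammatory signaling. MTX is an antifolate that blocks folate-dependent enzymes, and adenosine release is one of its known effects. In obesity, white adipose tissue accumulates macrophages that surround dying adipocytes and take up their lipid. The question of the comparison is which genes of MTX-treated eWAT differ between KO and flox libraries. Whether a difference comes from the Mir181a2b2 locus or from another difference between the mice of these groups was not tested.

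The mature strands of the family are shown because all of them, those of the deleted locus included, share one seed. The sequences are from RefSeq (build GRCm38.p6, plus strand for the first 4 precursors and minus strand for Mir181c and Mir181d), and the capitals mark the seed. Mir181a-2 (chr2:38852735-38852810) and Mir181b-2 (chr2:38853830-38853918) encode the same mature strands as Mir181a-1 and Mir181b-1 on chromosome 1, so the mature sequence does not show from which locus a miRNA came.
miR-181a-5p (Mir181a-1 and Mir181a-2): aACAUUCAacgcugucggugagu
miR-181b-5p (Mir181b-1 and Mir181b-2): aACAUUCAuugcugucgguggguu
miR-181c-5p (Mir181c): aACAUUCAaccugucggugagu
miR-181d-5p (Mir181d): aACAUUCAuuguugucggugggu

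The libraries measured RNA of genes and hardly any of these precursors, so they hold no direct check of the deletion. Mir181a-2 had 2 counts in flox MTX replicate 4 and 0 counts in each of the other 11 libraries, while Mir181b-2, Mir181a-1 and Mir181b-1 had 0 counts in all 12. The upper limit for a count of 0 is 3 counts. In these libraries that is 0.125 to 0.154 CPM (counts scaled to a total of 1000000), and it covers counting error only. Nr6a1, a nuclear receptor gene whose interval holds the locus, measured 3.16, 4.81 and 3.94 CPM in the flox MTX libraries and 2.83, 3.20 and 3.19 CPM in the KO MTX libraries. These ranges overlapped, and the log2 difference was -0.37 ± 0.27 (SE, edgeR adjusted p = 0.413).

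Depth was even, from 19495310 to 23976469 counts in the 6 libraries, with a median of 22154462. CPM values of genes are scaled with TMM factors, summed levels of lists are CPM of all counts without these factors, and groups of 3 values are given in the order flox MTX replicates 1, 2 and 4 and KO MTX replicates 2, 3 and 4. The adipose label was checked against 25 adipocyte marker genes, whose summed level was 60857 to 128629 CPM in flox MTX and 31465 to 58944 in KO MTX libraries. 4 libraries stood apart in a way that touches the results. Flox MTX replicate 2 carried 13479 CPM of B and plasma cell genes, against 1570 to 3850 in the other 5 MTX libraries. KO MTX replicate 3 carried 442 CPM of mast cell genes, against 24.9 to 97.6 in the other 5. Among the 6 MTX libraries, flox MTX replicate 4 had the least macrophage RNA, at 1107 CPM. Flox vehicle replicate 3, which is no part of the comparison but adds to the spread, carried 14811 CPM of epididymis genes, and its values of mt-Nd3 and Lrmda, given below, lay with the KO libraries and not with the other flox libraries. Whether the genotype of this library is as labelled was not tested, and it was kept under its label in all counts below. Epididymis genes summed to 119 to 677 CPM in the flox MTX and 125 to 145 in the KO MTX libraries, and testis germ cell genes to 56.8 to 88.6 and 74.5 to 109, so both sums overlapped. Of the 21 epididymis and 22 testis germ cell genes tested, 11 and 11 passed the filter on low counts when the flox vehicle group was left out, so the others passed through that group. The median of the epididymis genes was -4.22, with 1 lower without overlap, but -1.15 without the flox vehicle group, -1.35 with the 6 MTX libraries alone and -1.09 without flox MTX replicate 1. That of the testis germ cell genes was 1.07, with 1 higher without overlap, but 0.06 without the flox vehicle group, -0.01 with the 6 MTX libraries alone and -0.50 without KO MTX replicate 4.

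A call required edgeR's quasi-likelihood test to give an adjusted p under 0.1 together with a difference of 1.5-fold or more, and 0 of the 18702 genes tested met it (0%). The smallest adjusted p was 0.104, shared by a long run of genes, and it came from an unadjusted p of 2.07e-05. At an unadjusted p below 0.05 there were 4576 genes, 24.5% of those tested, of which 2155 were higher in KO MTX (11.5%) and 2421 lower (12.9%). DESeq2 on the same counts called 2769 genes (14.8%), 1285 higher (6.87%) and 1484 lower (7.93%). Without flox vehicle replicate 3 edgeR called 1028 genes, and without flox MTX replicate 2 it called 4064. Since no gene met these limits, the values and their order are given without a call. The median log2 difference of all genes was -0.05, and 46.2% of genes were higher in KO MTX.

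Differences that held in every library were counted as genes whose 3 KO MTX values all lay above, or all below, the 3 flox MTX values. There were 2760 such genes higher in KO MTX (14.8% of those tested) and 2261 lower (12.1%). Many of these separations were narrow. A gap of at least 1.5-fold between the nearest libraries of the groups, after 0.1 CPM was added to each value, was found for 328 genes higher (1.75%) and 200 genes lower (1.07%). Between the vehicle groups, which share no library with the MTX groups, 1674 of the genes higher in MTX also lay higher without overlap (8.95% of all genes, 60.7% of the MTX genes and 39.2% of the vehicle genes), as did 1046 of the genes lower (5.59%, 46.3% and 22.2%). For 153 genes the libraries separated in opposite directions. All 6 KO libraries lay above all 6 flox libraries for 912 genes (4.88%), and below them for 534 genes (2.86%).

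**Figure D1:**
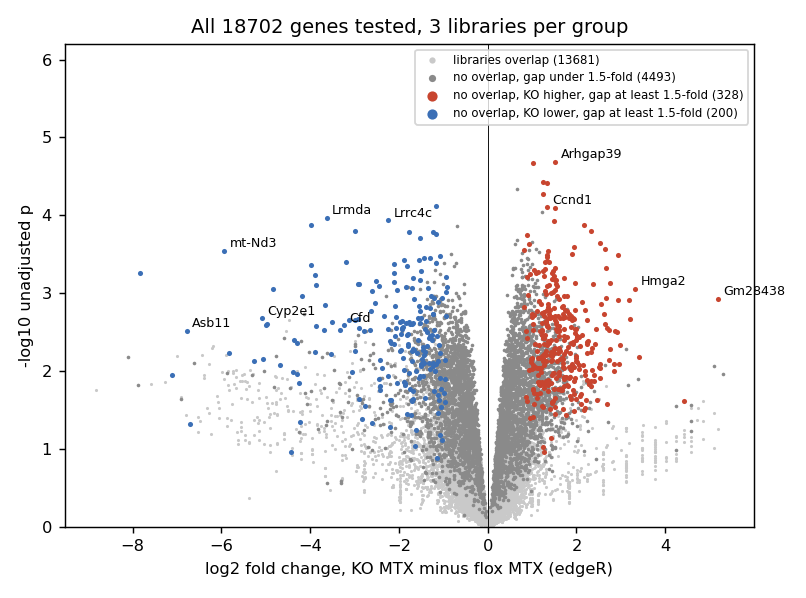
Each point is 1 of the 18702 genes tested, with the log2 fold change of KO MTX against flox MTX on the x axis and -log10 of the unadjusted edgeR p on the y axis (3 libraries per group). Red and blue points, 328 and 200 genes, have libraries that do not overlap and a gap of at least 1.5-fold, dark grey points have a narrower gap, and pale points overlap.

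Among the genes of the smallest p that were higher in KO MTX, Arhgap39, a GTPase-activating protein, led. It measured 23.1, 27.3 and 16.2 CPM in flox MTX and 60.3, 74.7 and 56.8 CPM in KO MTX, a log2 difference of 1.52 ± 0.22 (SE; edgeR adjusted p = 0.104). Every KO MTX library was more than 2-fold above the highest flox MTX library, with a gap of 2.07-fold. Mrtfb, a coactivator of serum response factor that responds to actin, measured 36.3, 33.3 and 25.7 CPM against 65.2, 64.0 and 65.1 CPM. Nde1, a dynein partner at the centrosome, showed the tightest groups, with 36.1, 39.2 and 37.9 CPM against 58.7, 62.3 and 58.5 CPM and a log2 difference of 0.67 ± 0.10 (SE).

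More genes of small p were higher in KO MTX. Pdgfb, the growth factor that recruits pericytes, measured 30.5, 31.0 and 19.9 CPM in flox MTX and 63.0, 67.1 and 63.6 CPM in KO MTX, with a gap of 2.03-fold. Pdgfrb, its receptor, measured 69.5, 76.8 and 41.6 CPM against 113, 115 and 104 CPM. The ligand and the receptor were both higher in every KO MTX library. Itga5, the fibronectin receptor subunit, measured 58.4, 65.5 and 39.2 CPM against 160, 177 and 129 CPM, a log2 difference of 1.51 ± 0.25 (SE). Arap3, a GTPase-activating protein for Arf, had 37.6, 25.8 and 24.5 CPM against 66.8, 64.6 and 75.8 CPM, and Tal1, a transcription factor of blood and endothelial cells, had 3.30, 2.22 and 2.06 CPM against 7.61, 7.01 and 6.94 CPM. B3gnt3, Pkn3, Arap3, Pdgfb, Itga5 and Tal1 also separated all 6 KO from all 6 flox libraries.

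Genes with the widest gap above flox MTX had their lowest flox value in replicate 4 and are known from several cell types. Siglec15, a lectin of osteoclasts and macrophages, measured 0.283, 0.409 and 0 CPM in flox MTX and 1.83, 2.08 and 1.75 CPM in KO MTX, a gap of 3.63-fold. Hmga2, a chromatin protein of growing and mesenchymal cells, measured 1.27, 2.22 and 0.25 CPM against 12.9, 18.1 and 7.47 CPM, with a log2 difference of 3.33 ± 0.74 (SE). The KO values of Hmga2 spread by more than 2-fold, yet the lowest of them stood 3.26-fold above the highest flox MTX value. Gdf3, a ligand of the TGF-beta family made by adipose macrophages, measured 1.89, 4.58 and 0.375 CPM against 24.9, 25.8 and 12.5 CPM. Havcr2, the inhibitory receptor TIM-3, measured 4.01, 4.4 and 1.62 CPM against 12.2, 14.5 and 12.1 CPM.

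Proteases and cytokine genes stood among these as well. Mmp3, the matrix protease stromelysin 1, measured 10.8, 15.8 and 1.5 CPM in flox MTX and 55.0, 67.8 and 42.8 CPM in KO MTX. Adam8, a cell surface protease of leukocytes, measured 98.2, 161 and 6.37 CPM against 452, 653 and 420 CPM. Il1rn, which encodes the antagonist of the IL-1 receptor, measured 17.5, 15.3 and 1.37 CPM against 58.0, 71.5 and 46.8 CPM. These 3 genes had a gap above 2.6-fold, while the flox MTX values themselves differed by 10-fold or more, so that the SE of the log2 difference was 0.78 for Adam8 and 0.76 for Il1rn. Arc and Npas4, immediate early genes best known from neurons, measured 1.37, 1.27 and 0.812 CPM against 8.30, 9.87 and 4.93 CPM and 1.51, 3.40 and 0.687 CPM against 11.6, 13.9 and 10.1 CPM. Perm1, a regulator of muscle metabolism, Tm4sf19, a tetraspanin-like membrane protein, and Htr2b, a serotonin receptor, completed the 12 genes of widest gap, with gaps of 2.84-fold, 2.84-fold and 2.54-fold.

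**Figure D2:**
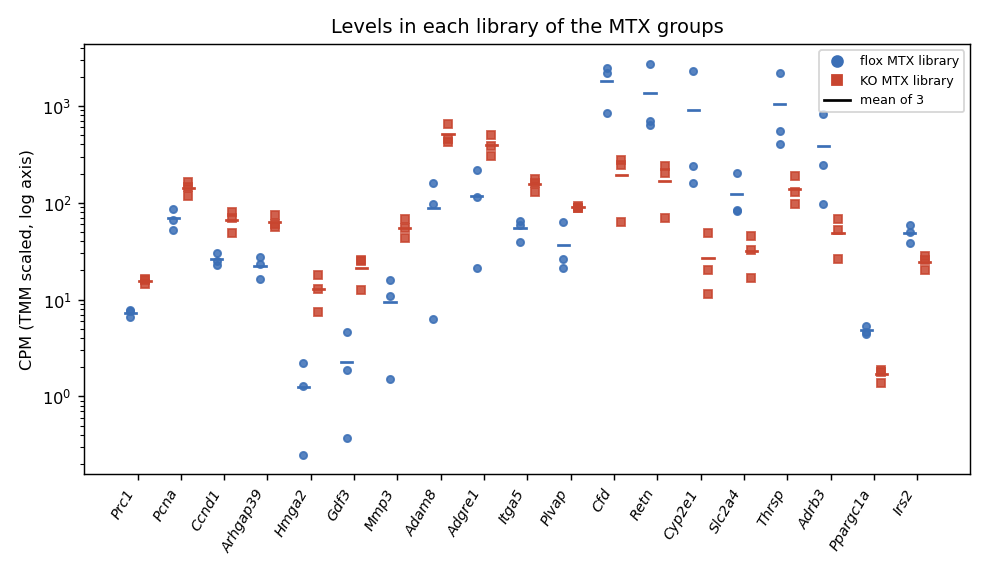
CPM of 19 genes on a log axis, with circles for the 3 flox MTX libraries, squares for the 3 KO MTX libraries and a bar at each mean. The groups do not overlap for any gene drawn; flox MTX replicate 4 sets the lowest flox points of Hmga2, Gdf3, Mmp3, Adam8 and Adgre1 and the highest of Retn, Cyp2e1, Thrsp and Adrb3.

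Genes of mitosis and the spindle separated the libraries in nearly all members. Of 56 such genes, all tested, 55 were higher in KO MTX and 52 lay above flox MTX without overlap, where 14.8% of all genes did, 30 of them with a gap of at least 1.5-fold (all genes, 1.75%). Their median log2 difference was 1.07, against -0.05 for all genes. Prc1, which bundles microtubules of the central spindle, measured 7.74, 7.63 and 6.56 CPM in flox MTX and 16.5, 15.9 and 14.4 CPM in KO MTX, a log2 difference of 1.09 ± 0.23 (SE). Ccna2, cyclin A2, measured 9.25, 11.4 and 8.75 CPM against 26.3, 25.1 and 23.0 CPM, and Dlgap5, a spindle assembly factor, 4.67, 4.04 and 3.06 CPM against 12.9, 12.4 and 8.47 CPM. The replicates of Prc1 and Ccna2 differed among themselves by less than 1.5-fold in each group, and the gap between the groups was 1.84-fold and 2.00-fold. The summed level of the list was 381 to 641 CPM in flox MTX and 928 to 1095 in KO MTX libraries.

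Of 44 genes of DNA replication, 39 were higher in KO MTX and 30 lay above without overlap (14.8% of all genes), with a median of 0.62. Pcna, the sliding clamp of the polymerases, measured 67.0, 86.8 and 52.9 CPM in flox MTX and 146, 164 and 117 CPM in KO MTX (log2 difference 1.05 ± 0.23, SE). Uhrf1, which maintains DNA methylation behind the fork, measured 11.6, 11.7 and 7.69 CPM against 25.4, 21.4 and 20.0 CPM, and Mcm10, an initiation factor, 2.97, 3.50 and 2.31 CPM against 7.35, 6.67 and 6.55 CPM. None of the 44 lay below flox MTX without overlap, where 12.1% of all genes did.

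Regulators of G1 were mixed. Of 26 such genes 19 were higher, 8 lay higher and 1 lower without overlap (all genes, 14.8% and 12.1%), and the median was 0.25. Ccnd1, cyclin D1, measured 25.3, 30.6 and 23.0 CPM in flox MTX and 70.2, 80.2 and 48.9 CPM in KO MTX, a log2 difference of 1.34 ± 0.22 (SE; edgeR adjusted p = 0.104). Between the vehicle groups its log2 difference was 0.03, and the interaction of genotype and treatment was 1.31 (edgeR adjusted p = 0.104). The atypical E2F repressors E2f7 and E2f8, with 2.74, 1.5 and 1.56 CPM against 5.43, 4.63 and 4.72 CPM and 2.69, 3.27 and 1.5 CPM against 8.48, 7.23 and 5.94 CPM, were higher in each KO MTX library. Rb1, the retinoblastoma protein, was the member lower without overlap, with 61.9, 53.8 and 90.2 CPM against 52.2, 36.5 and 47.2 CPM. Of 20 targets of p53, 4 lay higher and 2 lower without overlap (all genes, 14.8% and 12.1%), with a median of 0.06. Mdm2, the ligase that degrades p53, had 57.8, 61.0 and 56.0 CPM against 90.3, 93.9 and 81.7 CPM, and Plk2, a stress-responsive kinase, 37.0, 34.0 and 11.3 CPM against 96.1, 110 and 70.2 CPM. Rrm2b and Perp lay lower without overlap, with log2 differences of -0.45 and -0.95.

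Promoters of the cell cycle lists are shown because most members were higher in KO MTX and because known elements of such promoters can be looked for by their letters. The window runs from 250 bases before to 50 bases after the gene start (RefSeq, GRCm38.p6), and matches were sought on both strands. The cell cycle homology region (CHR), TTTGAA or TTCGAA, was in 77.3% of the 44 mitosis promoters in the table, against 14.4% of the 12939 promoters of all genes tested. CCAAT was in 65.9% and 37.9% of them. An E2F motif (TTTGGCGC, TTTCCCGC, TTTCGCGC or TTTGCCGC) was in 37.8% of the 37 DNA replication promoters and 3.69% of all promoters; no match of one motif overlaps a match of another in the promoters printed. The promoters printed were chosen among genes higher in KO MTX without overlap, and not every chromosome was considered. Within that choice Prc1 has the smallest p of mitosis genes with a CHR match. Pold3 has the smallest p of replication genes with an E2F match. It encodes a subunit of DNA polymerase delta and measured 18.3, 27.3 and 13.2 CPM against 36.5, 44.1 and 31.7 CPM. Capitals mark CCAAT and the CHR in Prc1 and the E2F motif in Pold3. A match describes the sequence and is no evidence of binding.
Prc1 promoter, chr7:80294201-80294500, plus strand: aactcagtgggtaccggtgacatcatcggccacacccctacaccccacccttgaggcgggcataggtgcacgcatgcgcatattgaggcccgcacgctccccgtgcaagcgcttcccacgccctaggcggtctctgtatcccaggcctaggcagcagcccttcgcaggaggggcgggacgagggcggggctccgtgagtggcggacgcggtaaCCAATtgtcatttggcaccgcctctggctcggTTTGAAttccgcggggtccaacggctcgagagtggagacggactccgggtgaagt
Pold3 promoter, chr7:100121453-100121752, minus strand: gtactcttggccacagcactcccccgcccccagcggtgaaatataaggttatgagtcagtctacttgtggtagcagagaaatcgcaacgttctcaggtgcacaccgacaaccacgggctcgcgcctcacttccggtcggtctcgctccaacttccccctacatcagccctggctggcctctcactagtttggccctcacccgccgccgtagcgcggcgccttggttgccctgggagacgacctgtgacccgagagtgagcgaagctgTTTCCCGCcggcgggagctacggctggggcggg

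Macrophage genes were higher in KO MTX in nearly all members. Of 21 macrophage markers 20 were higher, 15 without overlap (14.8% of all genes), with a median of 1.22 that was 1.93 when flox MTX replicate 2 was left out and 0.80 when replicate 4 was, and the summed level was 3657, 7451 and 1107 CPM in flox MTX and 9997, 13954 and 8285 in KO MTX. Adgre1, which encodes F4/80, measured 116, 216 and 21.4 CPM in flox MTX and 390, 496 and 305 CPM in KO MTX, a log2 difference of 1.75 ± 0.60 (SE; edgeR adjusted p = 0.127). Lgals3, galectin-3, measured 614, 851 and 148 CPM against 1730, 2130 and 1339 CPM, and Mertk, a receptor for the engulfment of dying cells, 49.9, 67.5 and 59.8 CPM against 86.0, 117 and 95.7 CPM. Mertk was even between libraries (SE 0.15), whereas Adgre1 and Lgals3 spread more than 5-fold within flox MTX, with replicate 4 lowest.

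Genes of lipid-associated macrophages, the cells that surround dying adipocytes, gave a median of 1.24, with 15 of 24 higher and 1 lower without overlap (all genes, 14.8% and 12.1%). Cd9, a tetraspanin that marks these cells, measured 74.2, 111 and 32.4 CPM in flox MTX and 192, 305 and 164 CPM in KO MTX. Lipa, lysosomal acid lipase, measured 242, 345 and 74.9 CPM against 607, 792 and 477 CPM, and Ctsk, cathepsin K, 117, 175 and 27.0 CPM against 292, 575 and 286 CPM. Acp5, tartrate-resistant acid phosphatase, went the other way, with 506, 273 and 428 CPM against 248, 178 and 270 CPM. Of 18 resident perivascular macrophage genes 7 were higher, 4 lay higher and 2 lower without overlap (all genes, 14.8% and 12.1%), and the median was -0.23, but 0.10 when flox MTX replicate 1 was left out and 0.01 when replicate 2 was. Among them Clec10a, a galactose lectin, had 149, 162 and 40.1 CPM against 310, 263 and 213 CPM, whereas Marco, a scavenger receptor, had 12.7, 33.6 and 16.1 CPM against 7.52, 11.9 and 9.96 CPM, and Cd209g, a C-type lectin, 8.07, 4.49 and 5.12 CPM against 3.52, 2.47 and 4.28 CPM.

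Of 42 genes of lysosomal hydrolases and the proton pump, 38 were higher and 30 without overlap (14.8% of all genes), with a median of 0.65. Gusb, beta-glucuronidase, measured 191, 220 and 106 CPM in flox MTX and 383, 500 and 352 CPM in KO MTX (log2 difference 1.26 ± 0.27, SE), and Npc1, the lysosomal cholesterol exporter, 56.9, 68.1 and 43.7 CPM against 107, 136 and 92.6 CPM. Fc receptor, ITAM signaling and phagocytosis genes gave 25 of 38 higher and 1 lower without overlap (all genes, 14.8% and 12.1%) and a median of 1.25, which was 1.90 without flox MTX replicate 2. Itgax, CD11c, measured 77.7, 136 and 13.7 CPM against 242, 430 and 242 CPM, C5ar1, the receptor of the complement fragment C5a, 59.2, 101 and 15.7 CPM against 230, 307 and 161 CPM, and the kinase Lyn 70.7, 86.4 and 45.3 CPM against 115, 142 and 108 CPM. The summed levels of both lists put the 6 libraries in the same order as the macrophage sum, and the part of macrophage number in these differences was not tested.

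**Figure D3:**
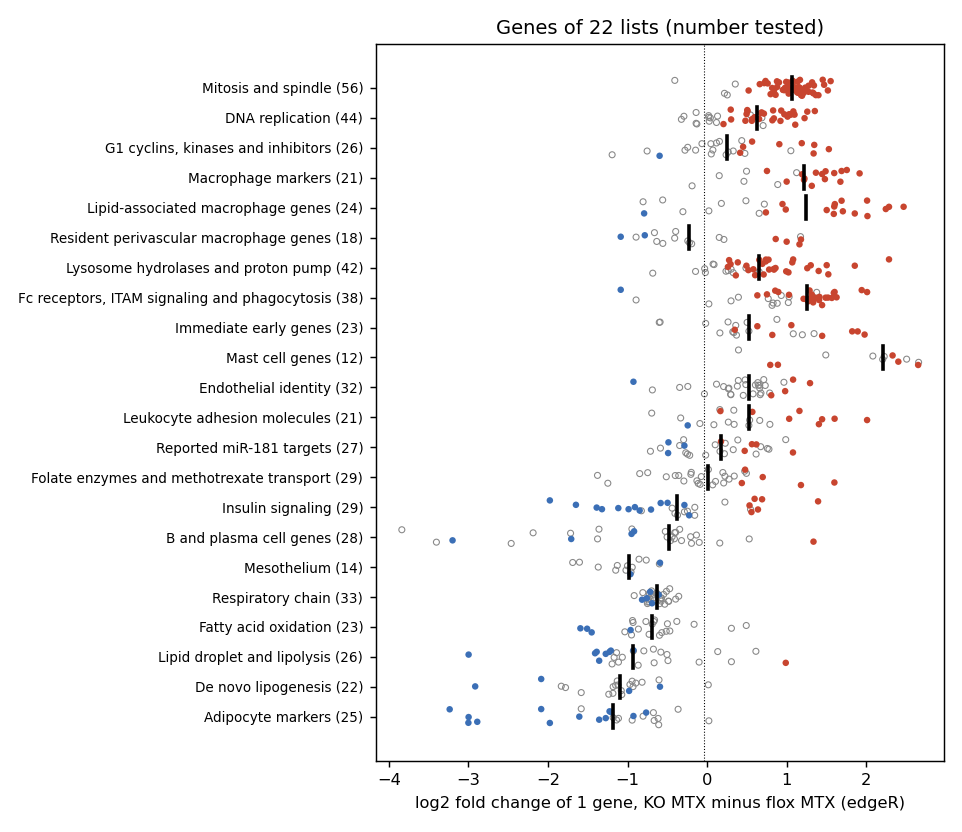
Each point is 1 gene of the list named on the y axis (number of genes tested in brackets), placed by its log2 fold change of KO MTX against flox MTX; red and blue points are genes whose libraries do not overlap, open points overlap. Black bars are list medians, from 2.21 for mast cell genes and 1.07 for mitosis to -1.18 for adipocyte markers, and the dotted line is the median of all genes, -0.05.

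Of 47 chemokine ligands and receptors 10 lay higher and 2 lower without overlap (all genes, 14.8% and 12.1%). Their median was 0.17, but -0.01 when flox MTX replicate 4 was left out and 0.62 when replicate 2 was. Ccl3 and Ccl4, which attract monocytes, measured 1.09, 2.59 and 0.312 CPM in flox MTX against 5.35, 10.6 and 4.85 CPM in KO MTX, and 0.566, 0.908 and 0.562 CPM against 2.83, 3.46 and 1.05 CPM. Ccl2, the main ligand of CCR2, measured 14.9, 8.58 and 8.69 CPM against 30.7, 21.3 and 21.4 CPM, without overlap but with a log2 difference of 1.19 ± 0.56 (SE; edgeR adjusted p = 0.219). The decoy receptors differed in direction: Ackr1 had 4.53, 3.54 and 2.81 CPM against 6.87, 6.28 and 5.63 CPM, and Ackr4 8.07, 6.54 and 3.50 CPM against 2.43, 1.65 and 2.62 CPM. Tnf overlapped between the groups, with 0.802, 3.09 and 1.31 CPM against 2.48, 3.59 and 2.88 CPM.

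Among 26 cytokines and cytokine receptors 22 were higher, 12 without overlap (14.8% of all genes), with a median of 0.58. Tgfb1, transforming growth factor beta 1, measured 76.7, 102 and 41.2 CPM in flox MTX and 162, 173 and 123 CPM in KO MTX, and Il10rb, a subunit of the IL-10 receptor, 61.1, 85.1 and 52.4 CPM against 125, 149 and 99.2 CPM. Il7r, the IL-7 receptor, measured 25.5, 45.3 and 7.62 CPM against 85.3, 114 and 77.6 CPM and was the single T cell gene of 28 higher without overlap; Ikzf2, a factor of regulatory T cells, was the single one lower without overlap, with 5.24, 10.6 and 8.06 CPM against 4.0, 5.15 and 3.54 CPM, and the median of the T cell list was -0.01, or -0.40 to 0.88 with 1 library left out. Of 33 genes of NF-kappaB and toll-like receptor signaling 10 lay higher and 1 lower without overlap (all genes, 14.8% and 12.1%), with a median of 0.43 that was 0.72 without flox MTX replicate 2, 0.27 without flox MTX replicate 4 and 0.27 without KO MTX replicate 3. Ticam1, the adaptor TRIF, measured 11.7, 15.5 and 11.2 CPM against 21.7, 25.2 and 21.2 CPM, and Tlr7, a receptor for single-stranded RNA, 16.2, 27.9 and 6.25 CPM against 36.9, 64.2 and 41.0 CPM. Of 30 interferon-stimulated genes 6 lay higher and 0 lower without overlap (all genes, 14.8% and 12.1%). Their median was 0.14, or 0.02 to 0.23 with 1 library left out. Of 14 genes of MHC class II presentation 3 lay higher and 0 lower without overlap. Their median was 0.70, or 0.32 to 1.05 with 1 library left out.

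The adhesion molecules of activated endothelium overlapped between the genotypes under MTX. Vcam1 measured 45.3, 82.1 and 24.2 CPM in flox MTX and 72.3, 79.8 and 66.0 CPM in KO MTX (log2 difference 0.52 ± 0.40, SE; edgeR adjusted p = 0.439), and Icam1 14.5, 29.1 and 12.7 CPM against 28.2, 44.6 and 24.5 CPM (0.79 ± 0.31; adjusted p = 0.155). Flox MTX replicate 2 lay above the KO range for Vcam1 and within it for Icam1. Sele had too few counts to be tested, with 0 to 7 counts in the 6 libraries. Of 21 leukocyte adhesion genes 8 lay higher and 1 lower without overlap (all genes, 14.8% and 12.1%). The adhesion median was 0.52, or 0.23 to 0.92 with 1 library left out. Cd44, a hyaluronan receptor, had 73.0, 144 and 34.4 CPM against 211, 293 and 160 CPM. Jam2, a junction molecule of venules, had 32.1, 22.7 and 21.3 CPM against 40.9, 32.7 and 39.0 CPM.

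Endothelial identity genes were higher in 27 of 32 members, 4 of them without overlap (14.8% of all genes), and lower in 5, 1 of them without overlap (12.1%). The median was 0.53, but 0.86 when flox MTX replicate 1 was left out and 0.29 when replicate 2 was, while the summed level was 13922 to 21529 CPM in flox MTX and 7260 to 15037 in KO MTX libraries, which overlap. Plvap, a protein of endothelial diaphragms, measured 62.8, 26.1 and 21.0 CPM in flox MTX and 91.8, 88.5 and 89.0 CPM in KO MTX, and Eng, endoglin, 111, 64.4 and 64.1 CPM against 140, 131 and 147 CPM. Sox17, an arterial transcription factor, measured 17.4, 11.4 and 13 CPM against 31.1, 18.7 and 38.6 CPM. Fabp4, the fatty acid binding protein of capillary endothelium and adipocytes, was the member lower without overlap, at 22092, 12559 and 20193 CPM against 11645, 5176 and 12020 CPM. Fabp4 made up most of the summed level of the endothelial list in every MTX library, so that sum mainly follows this gene. Stromal and matrix genes also differed in part. Of 27 stromal genes 8 lay higher and 1 lower without overlap (all genes, 14.8% and 12.1%). Their median was 0.27, or 0.13 to 0.52 with 1 library left out. Postn, periostin, had 230, 126 and 104 CPM against 385, 435 and 330 CPM, and Acta2, smooth muscle actin, 157, 154 and 349 CPM against 136, 67.1 and 141 CPM. Matrix enzymes gave 10 of 33 higher and 2 lower without overlap (all genes, 14.8% and 12.1%). Their median was 0.31, or 0.14 to 0.55 with 1 library left out. Loxl2, a collagen crosslinking enzyme, had 38.3, 35.3 and 38.7 CPM against 67.2, 74.2 and 51.3 CPM. Of 29 collagen genes 5 lay higher and 1 lower without overlap (all genes, 14.8% and 12.1%). The collagen median was -0.02, or -0.13 to 0.12 with 1 library left out. The summed level (no TMM factors) was 9997 to 12898 CPM in flox MTX and 14304 to 15183 in KO MTX libraries. These sums did not overlap, but with the TMM factors applied they did. Those factors were 0.8835 for flox MTX replicate 1 and 1.065 for KO MTX replicate 3. All 14 mesothelium genes were lower, 2 without overlap (12.1% of all genes), with a median of -0.98 that was -0.65 without flox MTX replicate 2.

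Adipocyte genes were lower in KO MTX. Of 25 adipocyte markers 24 were lower (53.7% of all genes were), 13 without overlap (12.1% of all genes), with a median of -1.18. Cfd, adipsin, measured 836, 2452 and 2197 CPM in flox MTX and 244, 63.7 and 274 CPM in KO MTX, a log2 difference of -3.24 ± 0.84 (SE), and Retn, resistin, 692, 628 and 2740 CPM against 201, 69.2 and 237 CPM. Adipoq, adiponectin, measured 2208, 1858 and 3616 CPM against 1016, 375 and 1131 CPM (edgeR adjusted p = 0.119). KO MTX replicate 3 was the lowest library for each of these genes. Lep, leptin, overlapped, with 5200, 2584 and 4257 CPM against 4085, 1389 and 3868 CPM.

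Lipid metabolism followed the same direction. De novo lipogenesis genes were lower in 21 of 22 members (median -1.10), lipid droplet and lipolysis genes in 22 of 26 (-0.93) and fatty acid oxidation genes in 21 of 23 (-0.69), with 4, 8 and 4 lower without overlap (12.1% of all genes). The lipogenesis median was -0.66 without flox MTX replicate 4. Thrsp, a lipogenic regulator, measured 547, 406 and 2211 CPM in flox MTX and 130, 98.1 and 191 CPM in KO MTX, and Scd1, stearoyl-CoA desaturase, 21336, 12694 and 54006 CPM against 6655, 3801 and 10274 CPM. Adrb3, the beta-adrenergic receptor of adipocytes, measured 98.0, 247 and 823 CPM against 67.7, 26.1 and 52.3 CPM, with the flox libraries spread over 8-fold. Plin2, a lipid droplet coat protein also made by lipid-laden macrophages, was the single member of its list higher without overlap, with 1429, 817 and 679 CPM against 2066, 2047 and 1681 CPM. Cyp2e1, a cytochrome P450, measured 238, 160 and 2322 CPM against 20.1, 11.5 and 48.2 CPM, and Cbs, cystathionine beta-synthase, 9.96, 7.35 and 13.5 CPM against 1.13, 0.866 and 2.10 CPM; all 6 KO libraries lay below all 6 flox libraries for both.

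Insulin signaling genes separated in both directions, 13 of 29 lower and 6 higher without overlap (all genes, 12.1% and 14.8%), with a median of -0.37. Slc2a4, the insulin-responsive glucose transporter GLUT4, measured 83.1, 84.9 and 203 CPM in flox MTX and 32.5, 16.7 and 45.1 CPM in KO MTX. Irs2, an insulin receptor substrate, measured 38.1, 50.3 and 58.5 CPM against 25.9, 27.9 and 20.2 CPM (log2 difference -0.99 ± 0.20, SE), and Insr, the receptor, 108, 90.9 and 143 CPM against 68.9, 58.6 and 82.4 CPM. Akt1, a kinase of the pathway, lay higher, with 109, 125 and 84.2 CPM against 170, 188 and 156 CPM, as did Inpp5d, the phosphatase SHIP1 of blood cells, with 43.9, 85.5 and 22.9 CPM against 117, 167 and 116 CPM. Irs2, Insr and Akt1 separated all 6 KO from all 6 flox libraries.

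**Figure D4:**
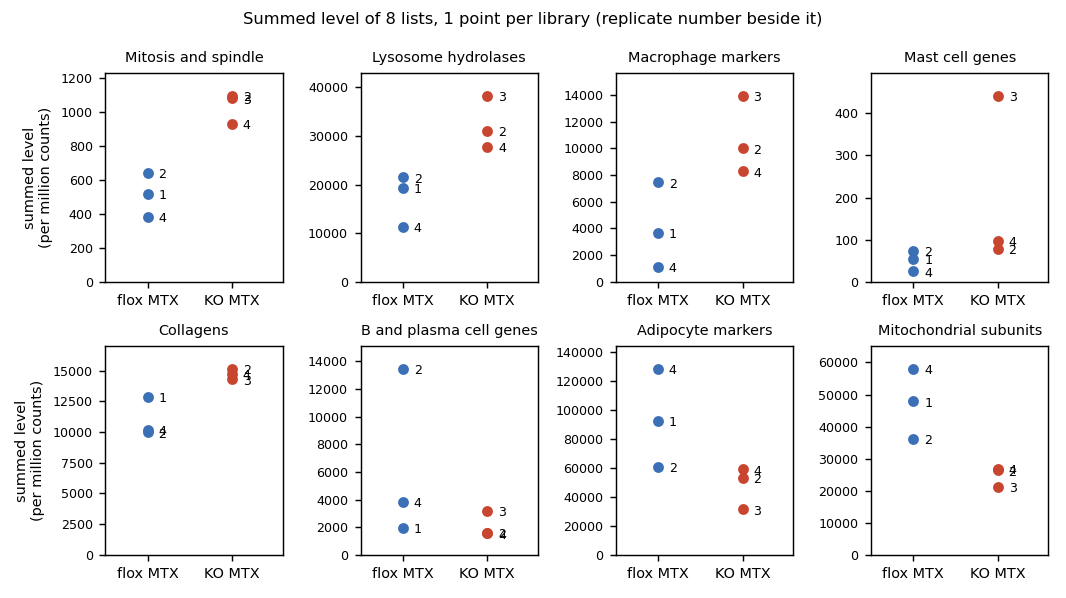
Summed level of 8 gene lists CPM, 1 point per library with its replicate number, flox MTX in blue and KO MTX in red, each y axis starting at 0. KO MTX replicate 3 is highest for macrophage and mast cell genes and lowest for adipocyte markers, and flox MTX replicate 2 is the library with 13479 CPM of B and plasma cell genes.

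Genes of the nuclear-encoded respiratory chain were lower in all 33 members, with log2 differences from -0.92 to -0.36 (median -0.63), of which 5 separated without overlap (12.1% of all genes). Ndufa2 and Ndufs3, subunits of complex I, measured 146, 125 and 164 CPM in flox MTX against 108, 81.5 and 95.5 CPM in KO MTX, and 134, 92.6 and 147 CPM against 83.6, 60.5 and 82.9 CPM. Ppargc1a, the coactivator PGC-1alpha that drives mitochondrial biogenesis, measured 4.63, 4.4 and 5.37 CPM against 1.87, 1.39 and 1.79 CPM, a log2 difference of -1.51 ± 0.31 (SE) with a gap of 2.29-fold. Its replicates were close in both groups. The 12 mitochondrially encoded subunits tested, a list added after values were seen, were all lower without overlap, with a median of -1.27 and a summed level of 36120 to 58088 CPM in flox MTX and 21186 to 26770 in KO MTX libraries. Some of them have near-identical copies on chromosome 1, given below, that can hold their counts. With its copy added, mt-Nd4l overlapped, at 3.73, 2.36 and 4.12 CPM against 2.39, 1.99 and 2.58 CPM. The sums of mt-Nd3, mt-Co3, mt-Atp6 and mt-Co2 with their copies stayed lower without overlap. The macrophage sum was higher and the adipocyte sum lower in these KO libraries, and their part in the mitochondrial difference was not tested.

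The widest gap of all named genes was at mt-Nd3, a mitochondrially encoded subunit of complex I (chrM:9459-9806, GRCm38), and its nearly identical copy on chromosome 1, Gm28438 (chr1:24612775-24613119, minus strand), went the opposite way. mt-Nd3 measured 20.7, 21.5 and 41.2 CPM in flox MTX and 0.478, 0.216 and 0.655 CPM in KO MTX. Gm28438 measured 0.519, 0.363 and 0.500 CPM in flox MTX and 20.1, 12.3 and 18.1 CPM in KO MTX. The groups thus differed in which of the 2 places held the counts, while the sum of both was 21.2, 21.8 and 41.7 CPM against 20.6, 12.5 and 18.8 CPM. In the vehicle groups the same pattern by genotype held in 5 of 6 libraries; flox vehicle replicate 3, with 0.39 CPM of mt-Nd3 and 19.2 CPM of Gm28438, lay with the KO libraries. Over the 345 aligned bases the 2 places differ by 1 base, T3C, counted from 1 at the start of mt-Nd3. Their first 28 bases are shown with that base in capitals, from the GRCm38 reference.
mt-Nd3: atTaacctgtacactgttatcttcatta
Gm28438: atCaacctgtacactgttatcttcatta

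**Figure D5:**
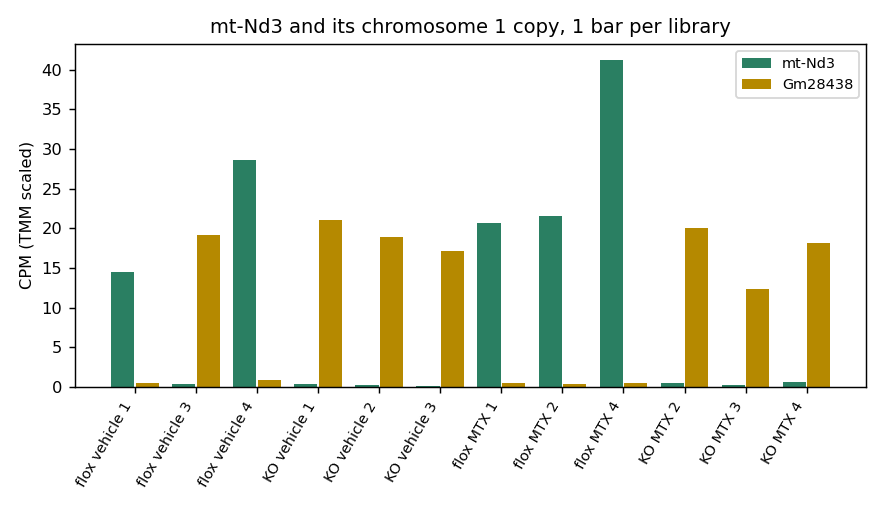
CPM of mt-Nd3 and of its chromosome 1 copy Gm28438, 1 pair of bars for each of the 12 libraries, by group and replicate. The KO libraries and flox vehicle replicate 3 hold their counts at Gm28438, and the other 5 flox libraries hold theirs at mt-Nd3.

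Other mitochondrial genes have copies of the same kind, so that counts at either place are uncertain. mt-Co3 and Gm28437, mt-Nd4l and Gm10222, mt-Atp6 and Gm10925, and mt-Co2 and Gm28661 were identical over their aligned bases. mt-Nd4l measured 3.26, 2.22 and 3.75 CPM in flox MTX and 0.174, 0.216 and 0.175 CPM in KO MTX, and Gm10222 0.472, 0.136 and 0.375 CPM against 2.22, 1.78 and 2.40 CPM, in the same opposite manner as mt-Nd3. mt-Co3 measured 3.97, 4.22 and 7.81 CPM against 1.09, 0.476 and 0.437 CPM. mt-Tg, the glycine transfer RNA gene next to mt-Nd3, measured 2.97, 2.95 and 7.87 CPM against 0, 0 and 0.0437 CPM. These low levels stand beside those of mt-Nd1, named here after its values were seen, which measured 7869, 4503 and 8229 CPM against 3839, 2847 and 3787 CPM.

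Lrmda, a gene of melanocyte differentiation on chromosome 14, behaved like mt-Nd3 across the libraries. It measured 20.3, 13.8 and 18.4 CPM in flox MTX and 1.96, 0.823 and 1.44 CPM in KO MTX, a log2 difference of -3.63 ± 0.62 (SE; edgeR adjusted p = 0.104) with a gap of 6.78-fold. In the vehicle groups flox measured 17.9, 2.35 and 8.2 CPM, with the low value in replicate 3, and KO 2.62, 1.73 and 1.78 CPM. With the 6 MTX libraries alone edgeR called 4 genes, which were Lrmda, mt-Nd3, mt-Nd4l and Gm28438.

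Other genes of small p were lower in KO MTX. Sox6, a factor that favors adipogenesis, measured 18.6, 17.5 and 39.3 CPM in flox MTX against 7.95, 5.37 and 8.60 CPM, and its antisense gene Sox6os 5.15, 4.86 and 13.9 CPM against 1.61, 0.649 and 1.62 CPM; since the strand setting of the counting is not stated, reads of the pair cannot be told apart. Myh10, nonmuscle myosin IIB, Ldhb, lactate dehydrogenase B, and Lrrc4c, a netrin-G ligand, had log2 differences of -1.24, -1.53 and -2.24. Asb11, an ankyrin repeat protein, measured 5.85, 0.272 and 0.437 CPM against 0.0435, 0 and 0 CPM, and flox MTX replicate 1 decides its difference.

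Immune cells other than macrophages gave values that rested on few libraries. All 12 mast cell genes were higher in KO MTX, 5 of them without overlap (14.8% of all genes), with a median of 2.21 that was 0.74 without KO MTX replicate 3, and the summed level of that library was far above the others. Mrgprb1, a mast cell receptor, measured 0.661, 1.18 and 0.0625 CPM in flox MTX and 1.35, 8.92 and 2.10 CPM in KO MTX, whereas Kit, the stem cell factor receptor, was more even, with 12.7, 8.81 and 12.0 CPM against 16.6, 22.6 and 18.7 CPM. B and plasma cell genes were lower in 25 of 28 members, 4 without overlap (12.1% of all genes). Their median was -0.48, but 0.60 without flox MTX replicate 2, -0.02 without KO MTX replicate 2, -0.96 without flox MTX replicate 1 and -1.54 without KO MTX replicate 3. Igha, the IgA constant region, measured 347, 2966 and 1224 CPM against 190, 154 and 150 CPM, a log2 difference of -3.20 ± 0.64 (SE), and Ebf1, a factor of B cells and preadipocytes, 111, 211 and 211 CPM against 101, 81.0 and 99.8 CPM. Reads of immunoglobulin genes, Ighv1-39 among them, can be split between near-identical copies. Sdc1, syndecan-1, which plasma cells share with other cells, was the one member higher without overlap, with 43.1, 49.9 and 15.3 CPM against 95.6, 104 and 73.9 CPM. Neutrophil genes had a median of -0.60, or -0.95 to -0.15 with 1 library left out, with 2 of 11 lower and 0 higher without overlap (all genes, 12.1% and 14.8%). Ltf, lactoferrin, is one of them and measured 48.4, 9.58 and 3.25 CPM against 1.09, 0.996 and 1.79 CPM; it followed the epididymis sum of the flox MTX libraries, 677, 361 and 119 CPM, and that sum's part in it was not tested.

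Genes of folate and adenosine metabolism, on which MTX is known to act, lay in both directions between the genotypes. Of 29 genes of folate enzymes and MTX transport 5 lay higher without overlap (14.8% of all genes) and 0 lower (12.1%), with a median of 0.01, or -0.03 to 0.07 with 1 library left out. Their summed level (no TMM factors) was 911 to 975 CPM in flox MTX and 1116 to 1272 in KO MTX libraries, without overlap. Slco2b1, an organic anion transporter, measured 101, 142 and 37.1 CPM against 256, 361 and 231 CPM, and Abcg2, an efflux pump that carries MTX, 21.5, 15 and 15.9 CPM against 27.4, 25.2 and 32.4 CPM. Purine and pyrimidine synthesis genes had a median of -0.06, with 5 of 23 higher and 1 lower without overlap (all genes, 14.8% and 12.1%).

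Of 16 genes of adenosine receptors and metabolism tested, 4 lay higher and 0 lower without overlap (all genes, 14.8% and 12.1%). The adenosine median was 0.27, or 0.09 to 0.42 with 1 library left out, lowest without flox MTX replicate 4. Adora3, the A3 receptor, had 5, 8 and 6 counts in flox MTX and 22, 28 and 16 counts in KO MTX, which gave 0.236, 0.363 and 0.375 CPM against 0.956, 1.21 and 0.699 CPM and a log2 difference of 1.55 ± 0.41 (SE; edgeR adjusted p = 0.104). Adora1, Adora2a and Adora2b overlapped between the groups, with log2 differences of -0.66, 0.30 and 0.65. Entpd1, the ectoenzyme CD39, measured 28.7, 36.0 and 15.1 CPM against 57.3, 68.1 and 50.2 CPM, and Slc29a1, the nucleoside transporter ENT1, 45.2, 58.2 and 29.3 CPM against 85.9, 118 and 77.6 CPM. Smad2, Smad3 and Smad4, the transducers of TGF-beta, overlapped, with log2 differences of -0.04, 0.01 and -0.02 (SE 0.18, 0.15 and 0.10) that change sign with the processing.

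Reported targets of miR-181 lay in both directions. Of 27 such genes 16 were higher in KO MTX, 5 without overlap and 3 lower without overlap (all genes, 14.8% and 12.1%), with a median of 0.17 that was 0.32 without flox MTX replicate 2. The summed level of the list (no TMM factors) was 2125 to 2740 CPM in flox MTX and 3038 to 3558 in KO MTX libraries, without overlap. Mcl1, an antiapoptotic protein, measured 264, 404 and 230 CPM in flox MTX and 444, 521 and 413 CPM in KO MTX, and Rap1b, a small GTPase, 198, 248 and 169 CPM against 307, 336 and 265 CPM. Bcl2, another antiapoptotic protein, went the other way, with 32.1, 56.9 and 35.2 CPM against 28.1, 31.6 and 28.8 CPM. Kpna4, the importin that carries NF-kappaB to the nucleus, overlapped (151, 106 and 190 CPM against 131, 110 and 130 CPM). Over 15230 protein-coding genes tested with a 3′ UTR in GENCODE M21, 873 (5.73%) held the site of 8 bases that pairs with the seed, tgaatgta, and their median log2 difference was -0.065, against -0.032 for all of them and -0.028 for the 12533 genes without a site of 7 bases (tgaatgt). The 83 genes with at least 2 sites of 8 bases had a median of -0.163. Genes with sites have longer 3′ UTRs, with a median of 2563 bases for at least 1 site and 1105 for all, and no value here was corrected for length.

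Immediate early genes were higher in 20 of 23 members, 8 without overlap (14.8% of all genes), with a median of 0.52 that was 0.86 without flox MTX replicate 2. Fosl1, an AP-1 subunit, measured 2.97, 2.04 and 1.19 CPM in flox MTX and 5.43, 6.10 and 5.46 CPM in KO MTX, and Jun 56.3, 73.8 and 49.7 CPM against 110, 119 and 88.1 CPM. Integrated stress response genes had a median of 0.09; Phgdh, the first enzyme of serine synthesis, measured 340, 302 and 829 CPM against 193, 73.2 and 183 CPM, whereas Atf3 measured 51.4, 96.9 and 5.69 CPM against 191, 248 and 133 CPM. Cholesterol synthesis (median -0.44), thermogenic (-0.16), complement (0.12), TGF-beta and SMAD (-0.02), circadian clock (0.04) and skeletal muscle genes (0.03) had 3, 0, 6, 8, 1 and 2 members higher and 1, 1, 2, 1, 0 and 3 lower without overlap (all genes, 14.8% and 12.1%). In that order, 24, 17, 20, 25, 19 and 15 genes of these lists were tested. The cholesterol synthesis median ran from -0.82 to -0.10 with 1 library left out.

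Values of the genotype difference under MTX and under vehicle were set side by side, since the 4 groups share no library between the 2 contrasts. The median of mitosis genes was 1.07 under MTX and 1.43 under vehicle, of macrophage markers 1.22 and 2.60, of lysosome genes 0.65 and 0.71, of adipocyte markers -1.18 and -0.51, and of mesothelium genes -0.98 and 0.47. Across all genes the interaction of genotype and treatment passed an adjusted p of 0.1 in edgeR for 168 genes with a more positive difference under MTX (0.898%) and 17 with a more negative one (0.0909%). Among the 193 genes named by the rule 2 did, Igha and Tssk6. For the others a difference between the treatments was not shown. Of the 22 testis germ cell genes tested, 14 passed the same limit, with a list median of 1.07 under MTX and -5.97 under vehicle. Without the flox vehicle group 11 of the 22 passed the filter on low counts. The others were tested only through that group, where the list is high, so the count of 14 cannot be read as a result. The summed level of the list was 391 to 870 CPM in the flox vehicle libraries and 56.8 to 109 in the 6 MTX libraries. The part of that level in the count of interactions was not tested.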

How the data were processed

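RNA of eWAT from 12 libraries (4 groups of 3) was analysed, of which the 6 MTX libraries form the comparison. The deposited table gives unnormalized read counts for each Ensembl gene (49315 genes, 99.3% with a symbol; genes without one hold 0.0688% of the counts), which the authors made with Trimmomatic 0.36, STAR 2.5.2b against GRCm38 and featureCounts of Subread 1.5.2. The methods describe ribosomal depletion and the labels polyA RNA. Strand setting and treatment of multiply mapping reads are not given in the sources used here.

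The counts were fitted in R 4.3.3 with edgeR 4.0.16: TMM factors, filterByExpr by group (18702 genes), 1 coefficient per group over the 12 libraries (8 residual degrees of freedom), the quasi-likelihood test and Benjamini-Hochberg adjustment. A call needed an adjusted p below 0.1 and a fold of at least 1.5. Differences are KO MTX minus flox MTX on the log2 scale. Summed list levels are shares of all counts without TMM. With 3 libraries against 3, an exact permutation test cannot go below 0.1, so none is printed. The procedure was tested on simulated counts. Library pairs of a group differed by a chi-square of at least 13.4 per gene, so none was a duplicate.

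The members, 44 gene lists (1 of their symbols is not in the table) and alternatives were chosen with earlier results of these data known, and 2 further lists after values were seen. Named genes (193) had a symbol that is no clone name and at least 1 CPM over the 6 libraries: the 12 of widest gap and the 10 of smallest p each way, up to 3 and 2 per list in its main and other direction without overlap, and 23 fixed genes, of which 18 were tested. Alternatives were DESeq2 1.42.0, limma 3.58.1 (voom with sample weights), robust moderation, RLE factors or library size alone, other filters and limits, fewer groups, a replicate block and each library left out. 3′ UTRs and coordinates are from GENCODE M21, promoters and miRNAs from RefSeq (GRCm38.p6). Some items are not reported here. Figures were drawn with matplotlib 3.10.9.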

Additional observations from a re-analysis of the deposited data

Results flagged for a closer look

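The genotype difference of 2 named genes differed between the treatments in a test of the interaction (edgeR, adjusted over all genes). Igha was -3.20 under MTX and 1.21 under vehicle on the log2 scale, an interaction of -4.41 (adjusted p = 0.0836). Its vehicle libraries measured 11.8, 5.37 and 12.9 CPM in flox and 24.7, 15.3 and 29.8 CPM in KO mice, far below the MTX libraries of either genotype. Tssk6, a kinase of testis germ cells, was 1.06 under MTX and -2.41 under vehicle, an interaction of 3.47 (adjusted p = 0.0886). Its flox vehicle libraries measured 11.7, 9.41 and 4.01 CPM, and the flox MTX libraries 0.755, 1.23 and 0.312 CPM. Testis germ cell genes summed to 391 to 870 CPM (all counts, no TMM) in the flox vehicle libraries and to 56.8 to 109 in the 6 MTX libraries, and their part in the difference of Tssk6 was not tested. With each of the 12 libraries left out in turn, neither gene passed in 9 of 12 cases (KO MTX replicates 2, 3 and 4, KO vehicle replicates 1, 2 and 3, flox MTX replicate 2, and flox vehicle replicates 1 and 3), and neither passed with the replicate block. When every library had to reach 10 counts, Igha did not pass and Tssk6 was filtered out, so it was not tested.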

How the results depend on the processing

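The count of calls by edgeR, 0, was also 0 with robust moderation, RLE factors, library size alone, the replicate block, no limit on the fold, an absolute log2 fold change of at least 1.5, and an adjusted p below 0.05. It was 899 with the 9 libraries without the flox vehicle group, 1491 when every library had to reach 10 counts, 875 with no filter at all, 4 with the 6 MTX libraries alone and 900 at an adjusted p below 0.11, a limit chosen after seeing the data because the smallest adjusted p was 0.104. DESeq2 called 2769 genes, and limma voom with sample weights 2519 (1479 higher and 1040 lower). With each library left out in turn the count ran from 0 to 4064: leaving out flox MTX replicate 1 gave 76, flox MTX replicate 2 gave 4064, flox vehicle replicate 3 gave 1028 and each of the other 9 gave 0. The cause was not tested.

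Genes without overlap numbered 3694 higher and 1478 lower with library size alone, which shifted the median over all genes tested by more than 0.1, -0.05 becoming 0.12; the other scaling and filters stayed within 1.5 times. With 1 of the 6 MTX libraries left out there were 3156 to 5095 higher and 2829 to 4997 lower, fewer libraries making overlap rarer, with the highest counts without flox MTX replicate 2. The interaction was called in 10 of the named genes by DESeq2, 13 by limma voom, 4 with no filter, 0 of the 171 tested when every library had to reach 10 counts, 0 with the replicate block, and 0 to 12 with 1 library left out, 12 without flox vehicle replicate 4.

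Directions of the named genes held under these alternatives except for the Smad genes. Smad2 was 0.15 with library size alone, 0.01 with the replicate block and -0.19 to 0.15 with 1 library left out; Smad3 was 0.00 with DESeq2 and with RLE factors, -0.01 with at least 10 counts, -0.06 with the replicate block, -0.01 with the 6 MTX libraries and -0.10 to 0.15 with 1 library left out; Smad4 was 0.16 with library size alone and -0.05 to 0.06 with 1 library left out. Of the 44 list medians, the direction turned in 1 without the flox vehicle group, 4 with library size alone, 3 with the replicate block, 3 with the 6 MTX libraries, 0 with DESeq2 or RLE factors, and 2 to 6 with 1 MTX library left out. Ranges of medians that turned with a library left out and are not given above were -0.21 to 0.62 for complement, -0.19 to 0.10 for purine and pyrimidine synthesis, -0.42 to 0.28 for thermogenic genes, -0.06 to 0.30 for TGF-beta and SMAD, -0.28 to 0.04 for skeletal muscle genes and 0.00 to 0.18 for circadian clock genes. The labels do not say whether the replicate numbers pair the libraries, and so few pairs cannot decide it. Residuals of the 2 MTX pairs of the same number correlated at -0.273 and 0.254. Over the 4 groups the median was 0.0353 for 12 pairs of the same number and 0.0112 for 42 others. With 3 libraries per group, genes that spread as widely within flox MTX as macrophage and mast cell genes were measured with SEs of 0.6 to 0.9 on the log2 scale, and genes below about 1 CPM rest on few counts.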
